A study of Mus musculus with 2 samples.

Results

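Ptgds, Hpgds, Ptgs1 and Ptgs2 are the 4 genes described here, out of 17592 genes measured in single cells of the mouse dentate gyrus. They were taken by name as the genes of prostaglandin D2 synthesis and of the cyclooxygenases that feed it, and were selected on their levels over cell classes in earlier results of these data. Those levels are therefore a description with no test. The study set an old library, from C57BL/6 mice of 16 months, against a young library, from C57BL/6 mice of 3 months, each age having a single library. In both, the dentate gyrus was dissociated with papain, cells that took up propidium iodide were removed by sorting, and 3' ends of transcripts were counted with unique molecular identifiers (UMIs). No treatment or altered allele is named in the labels, and the number of animals behind each library is not given in the sources used here.

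Cyclooxygenases turn arachidonic acid, released from membrane lipids by lipases, into prostaglandin H2, the shared precursor of the prostaglandins and of thromboxane. Ptgs1 encodes the mostly constitutive cyclooxygenase COX-1 and Ptgs2 the inducible COX-2, which belongs to the immediate early genes in excited neurons. Prostaglandin H2 is then converted to prostaglandin D2 by either of 2 unrelated enzymes. The lipocalin-type synthase, encoded by Ptgds, is secreted and is abundant in oligodendrocytes, the meninges and the choroid plexus, while the hematopoietic synthase, encoded by Hpgds, works inside mast cells, macrophages and microglia. Prostaglandin D2 is a sleep-promoting signal in the brain.

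The old library held 1430 cells with 7451506 UMIs and the young library 2463 cells with 16217559 UMIs. Of the old library's cell barcodes, 1401 (98.0%) also occurred in the young library, where they made up 56.9% of cells. Clusters were set apart as low-mitochondrial where their median mitochondrial share was under 1% in both libraries, which left 1140 old and 1148 young brain-class cells. Of these, 1113 barcodes were shared, all 1113 fell in the same class in both libraries, and a shared barcode had a median of 1.12 times as many UMIs in the old library. Brain-class values of the old and young libraries are thus mostly values of the same barcodes and are not separate samples of 2 ages. The young library is the main one below, the old library stands beside it, and all intervals are 95% and cover counting error only.

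Cell classes were rebuilt from marker genes, since no annotation came with the data, and carry "-like" for that reason. The 4 genes were left out of the genes used for clustering. There were 10 classes with at least 10 young cells, and choroid plexus-like cells are added although there were 3. All 10 measured markers of mature oligodendrocytes, all 12 of microglia and 9 of 9 of perivascular macrophages met the naming rule in their clusters. No cluster was named after mature granule neurons or mast cells. Of the 6 mast cell markers listed, 1 was in the table, Kit, with 32 UMIs in old and 31 in young brain-class cells. A cluster of 70 old and 70 young cells stayed unnamed, and 60 of them in each library carried at least 20 microglial marker UMIs per 10,000.

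Each gene had its own pattern over the classes. Levels are summed UMIs of the gene per 10,000 UMIs of the class, which for a 3' count needs no correction for transcript length. Ptgds was highest in mature oligodendrocyte-like cells, Hpgds and Ptgs1 in microglia-like cells, and Ptgs2 was almost absent, with its few UMIs mainly in single endothelial-like cells and in 1 unnamed cell. Each of the 4 was at least 4-fold higher in its leading class than in the other brain-class cells of the young library. That fold was passed by 4.9% of 12336 genes tested in mature oligodendrocyte-like cells, by 5.72% in microglia-like cells and by 5.82% in endothelial-like cells, so the genes share it with many others. In at least 1 of the 10 classes it was passed by 43.6% of the genes. In the classes that led for none of the 4, it was passed by 3.31% of genes for perivascular macrophage-like, 6.3% for neuroblast-like, 8.94% for astrocyte-like, 7.67% for oligodendrocyte precursor-like, 8.6% for Cajal-Retzius-like, 5.17% for pericyte-like and 4.83% for smooth muscle-like cells.

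**Figure D1:**
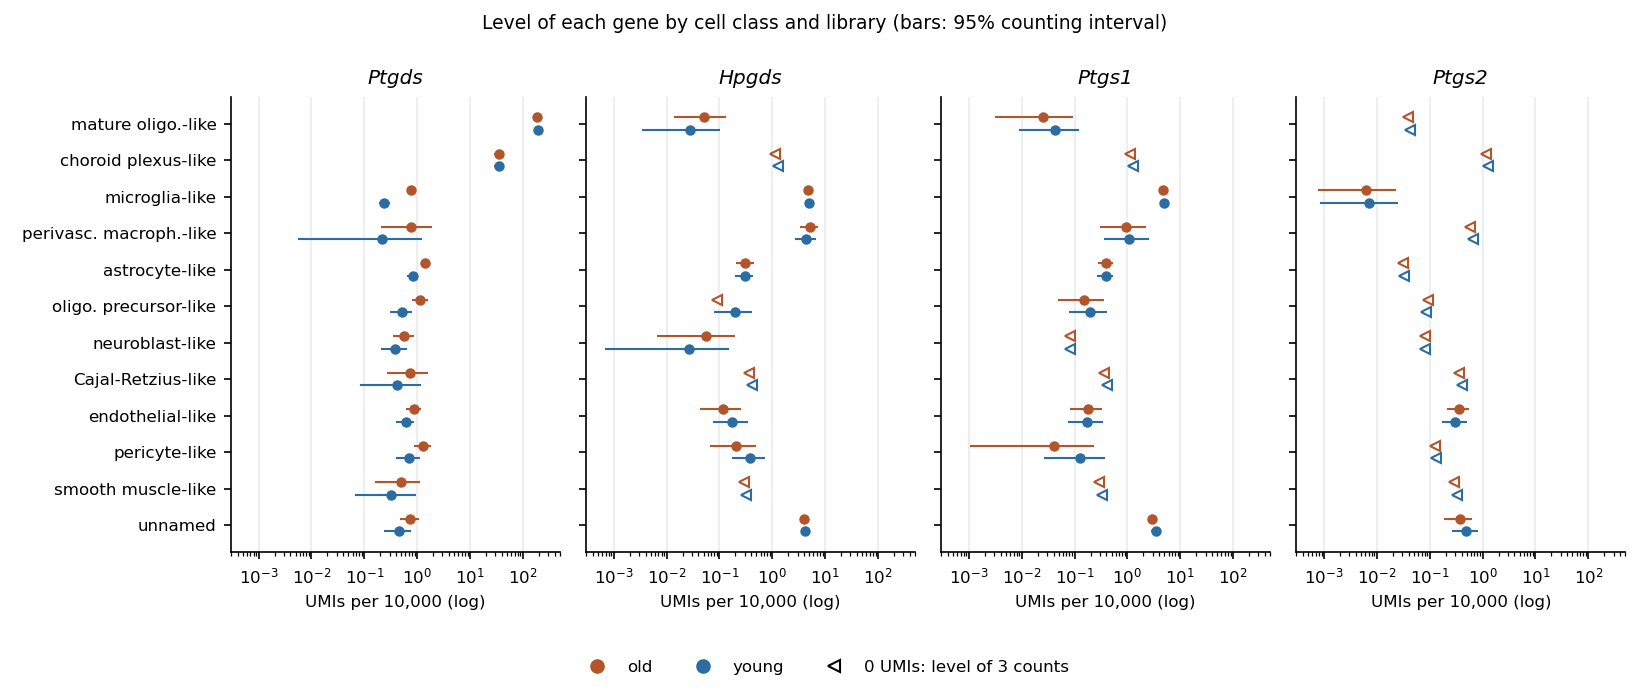
Level of Ptgds, Hpgds, Ptgs1 and Ptgs2 (UMIs per 10,000, log axis) in each cell class, with the old library above the young one. Bars are 95% counting intervals, and open triangles mark the level of 3 counts where a class had 0 UMIs. Ptgds stands near 190 in mature oligodendrocyte-like cells of both libraries and near 1 or lower in most other classes, while Hpgds and Ptgs1 stand near 5 in microglia-like cells.

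Ptgds, the lipocalin-type synthase on the minus strand of chromosome 2 (25466709 to 25470046, GRCm38), was a gene of mature oligodendrocyte-like cells. It had 14818 UMIs and a level of 188.6 (185.5 to 191.6) in 78 old cells, and 13732 UMIs and a level of 192.8 (189.6 to 196.1) in 79 young cells. These cells held 95.8% of all Ptgds UMIs of old brain-class cells and 97.7% of those of young ones. The young level was 343-fold (307 to 384) that of the other brain-class cells, which averaged 0.562. It was 483-fold with a mitochondrial limit of 0.5% and 222-fold by means over cells. Ptgds was detected in 97.4% of old and 96.2% of young mature oligodendrocyte-like cells, and the young share was 91.1% once each cell was thinned to 1000 UMIs.

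Choroid plexus-like cells came second among the named classes. Their 3 old cells had 12 to 44 Ptgds UMIs and a level of 34.9 (28.1 to 42.7), and their 3 young cells 11 to 40 UMIs and a level of 35.4 (28.2 to 43.9). Every one of these cells had Ptgds, at 21.7, 28.7 and 53.0 UMIs per 10,000 in the old library and at 22.1, 28.7 and 54.5 in the young one. Their ratio of Ptgds UMIs to those of Mbp, which encodes myelin basic protein, was 30.7 (10.2 to 151) in the old library and 83.0 (14.5 to 3317) in the young one, from 3 and 1 Mbp UMIs, against 4.54 and 4.56 in old and young mature oligodendrocyte-like cells. Higher still was a single cell outside the brain classes, in the low-mitochondrial clusters, which carried fibroblast and pericyte markers and had 481 Ptgds UMIs per 10,000 in the old and 521 in the young library. With a mitochondrial limit of 0.5%, a fibroblast-like class stood at 6.42, second to mature oligodendrocyte-like cells among classes of at least 10 young cells.

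Below these, neighbouring classes could hardly be ordered in the young library, though some classes further apart could. Astrocyte-like cells had a Ptgds level of 0.829 (0.652 to 1.04), pericyte-like cells 0.685, endothelial-like cells 0.610 and oligodendrocyte precursor-like cells 0.510. Cajal-Retzius-like, neuroblast-like, smooth muscle-like, microglia-like and perivascular macrophage-like cells followed at 0.409, 0.375, 0.323, 0.240 and 0.218. The interval of microglia-like cells (0.187 to 0.303) lay below those of astrocyte-like, pericyte-like (0.392 to 1.11) and endothelial-like (0.406 to 0.882) cells. No neighbours in this order differed beyond counting error, apart from the 233-fold (185 to 296) step between mature oligodendrocyte-like and astrocyte-like cells. The precursors of the oligodendrocyte lineage were thus among the low classes, and Ptgds stood apart from Mbp there: 18 Ptgds and 249 Mbp UMIs gave a ratio of 0.0723 (0.0422 to 0.117), far below the 4.56 (4.38 to 4.74) of mature cells.

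The shares of cells with a Ptgds UMI were compared at their depths. In microglia-like cells, which are not a known myelin-forming type, 16.2% (12.5 to 20.4) of young cells had a Ptgds UMI at a median depth of 7993 UMIs, against 21.7% of neuroblast-like cells at 8946, 29.2% of oligodendrocyte precursor-like cells at 7999 and 19.4% of astrocyte-like cells at 1912. After thinning to 1000 UMIs the shares were 3.08%, 3.26%, 8.12% and 10.4%, with 2, 0, 1 and 41 shallower cells left out. Ptgds per Mbp UMI was 0.289 (0.218 to 0.379) in microglia-like, 0.429 (0.323 to 0.565) in astrocyte-like and 0.350 (0.176 to 0.657) in neuroblast-like cells. How far free RNA makes up the level of each class was not tested.

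Within mature oligodendrocyte-like cells, Ptgds varied far more than the myelin genes around it. Single young cells ran between 0 and 683.9 UMIs per 10,000, with a median of 119.8, and with 10% of cells at 8.5 or lower and 10% at 403.6 or higher. In the old library the span was 0 to 671.7, with a median of 115.3. Of the young cells, 3 had no Ptgds and 10 were under 10 UMIs per 10,000, and the 10 highest cells held 37.8% of the UMIs. The coefficient of variation was 0.933 in old and 0.928 in young cells. That of Mobp, a myelin-associated basic protein gene, was 0.361 in old and 0.363 in young cells, and that of Mbp was 0.288 in old and 0.290 in young cells. The variance of Ptgds UMIs was 157 times the Poisson value in old and 142 times in young cells, against 2.99 and 2.87 times for Mobp.

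Some oligodendrocyte genes followed Ptgds from cell to cell and some ran against it. Over the 79 young cells, which share 1 library, the correlation of Ptgds with Qdpr, the dihydropteridine reductase gene, was 0.55, with Opalin, a gene of mature oligodendrocytes, 0.47, and with Mal, a myelin lipid-raft protein gene, 0.35. With Mbp it was -0.36 and with Mobp -0.34. The old library gave 0.49, 0.42 and 0.39 for the first 3 and -0.37 and -0.34 for Mbp and Mobp. Ptgds also followed the mitochondrial share (0.45 in old and 0.48 in young cells) and the log2 of total UMIs (0.33 in old and 0.28 in young cells), whose part in these relations was not tested.

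**Figure D2:**
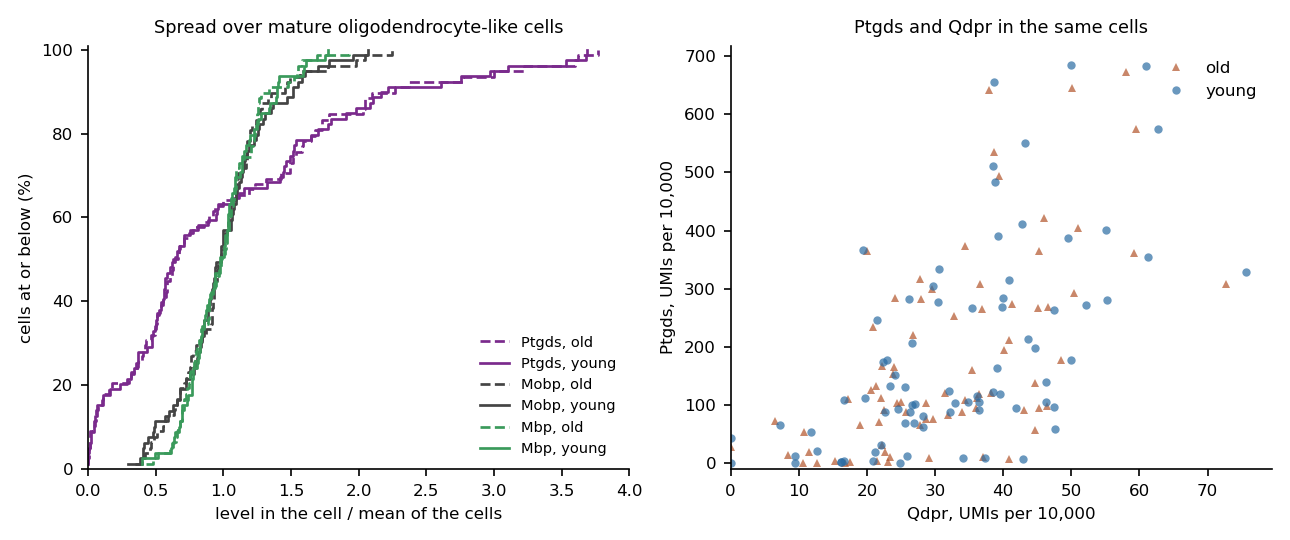
Left, cumulative share of mature oligodendrocyte-like cells (%) by their level of Ptgds, Mobp or Mbp divided by the mean of the cells, old library dashed and young library solid. Right, Ptgds against Qdpr in each cell (UMIs per 10,000), old cells as triangles and young cells as circles. The Ptgds curve is much flatter than those of Mobp and Mbp, and cells with little Qdpr have little Ptgds.

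The genes whose pattern over the 10 classes was most like that of Ptgds were Opalin (r = 0.99), Ermn, Nkx6-2, Pls1 and Smco3, among 8169 genes with at least 100 young brain-class UMIs. Each was highest in mature oligodendrocyte-like cells, at levels between 2.08 for Pls1 and 20.2 for Ermn. Ermn encodes a cytoskeletal protein of mature oligodendrocytes and Nkx6-2 a transcription factor of that lineage. All 12 of the listed myelin companion genes also passed 4-fold in mature oligodendrocyte-like cells, as did 4.9% of all genes tested. Their folds were between 11.9 for Trf, the transferrin gene, and 251 for Mog.

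Hpgds and Ptgs1 were both genes of microglia-like cells. Hpgds (minus strand of chromosome 6, 65117293 to 65144908, GRCm38) had 1496 UMIs and a level of 4.75 (4.51 to 4.99) in 352 old microglia-like cells, and 1398 UMIs and a level of 4.86 (4.6 to 5.12) in 358 young ones. Ptgs1 (plus strand of chromosome 2, 36230426 to 36252272) had 1498 UMIs and a level of 4.75 (4.52 to 5.0) in old cells, and 1443 UMIs and a level of 5.01 (4.76 to 5.28) in young cells. Against the other brain-class cells of the young library, the fold was 9.0 (7.74 to 10.5) for Hpgds and 11.1 (9.40 to 13.1) for Ptgs1. The unnamed cells, most of which carried microglial markers, belong to those other cells and had young levels of 4.12 for Hpgds and 3.50 for Ptgs1. They were not uniform. A sub-cluster of 25 old and 24 young cells held 96 of their 129 old and 90 of their 119 young Hpgds UMIs, at a level of 7.84 in the old and 8.34 in the young library, with Ptgs1 at 5.64 and 6.49. In the other unnamed sub-clusters the young Hpgds level was between 1.14 and 2.56. A mitochondrial limit of 0.5%, under which more cells counted as brain-class, gave 62.2-fold and 69.8-fold, and the young library clustered alone gave 17.5-fold and 19.1-fold.

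The gene starts of this pair are shown because both genes were high in the same class and both hold a run of letters of the kind bound by PU.1, an ETS-family transcription factor of microglia and macrophages. Each line is 250 bases before the RefSeq start on GRCm38.p6, 5′ to 3′ on the gene's strand, with GAGGAAGT in capitals. The Hpgds window is chr6:65144731-65144980 on the minus strand and the Ptgs1 window chr2:36230176-36230425 on the plus strand. In GENCODE the Hpgds gene begins inside its window.
Hpgds: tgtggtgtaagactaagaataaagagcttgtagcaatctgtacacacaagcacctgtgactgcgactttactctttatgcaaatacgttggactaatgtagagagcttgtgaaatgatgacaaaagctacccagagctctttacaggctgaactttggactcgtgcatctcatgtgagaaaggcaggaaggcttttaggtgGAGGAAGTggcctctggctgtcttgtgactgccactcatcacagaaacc
Ptgs1: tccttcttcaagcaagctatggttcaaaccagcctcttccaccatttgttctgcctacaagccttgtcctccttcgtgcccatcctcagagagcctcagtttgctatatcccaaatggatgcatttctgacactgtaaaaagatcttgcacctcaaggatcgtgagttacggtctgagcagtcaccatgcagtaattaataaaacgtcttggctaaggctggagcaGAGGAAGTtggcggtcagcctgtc
The letters lie 49 to 42 bases before the RefSeq start of Hpgds, which by GENCODE is inside the gene, and 24 to 17 bases before the start of Ptgs1. They were chosen after the sequences had been seen and were searched on both strands, and no other motif is counted here. Of 32851 such windows of mouse genes, 2.44% hold them. Among genes with a window, they were found for 8.86% of 519 genes at least 4-fold higher in microglia-like cells and for 2.94% of 9616 genes tested. Hpgds and Ptgs1 are themselves among those 519 genes, and binding by PU.1 was not tested. The windows of Ptgds and Ptgs2 do not hold these letters.

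Perivascular macrophage-like cells, the other macrophages of brain tissue, had Hpgds without as much Ptgs1. Their Hpgds level was 5.11 (3.36 to 7.43; 27 UMIs) in 11 old cells and 4.36 (2.67 to 6.74; 20 UMIs) in 10 young cells, which did not differ from microglia-like cells beyond counting error (young fold 1.11, 0.718 to 1.83, microglia-like over perivascular macrophage-like). Ptgs1 had 5 UMIs in each library, a level of 0.945 (0.307 to 2.21) in old and 1.09 (0.354 to 2.55) in young cells. Microglia-like cells had 4.59-fold (1.96 to 14.2) that young level. Ptgs1 per Hpgds UMI was thus 0.185 (0.0557 to 0.488) in old and 0.250 (0.0733 to 0.686) in young perivascular macrophage-like cells, against 1.00 (0.932 to 1.08) and 1.03 (0.958 to 1.11) in old and young microglia-like cells. The class is small, and the microglial marker list, which these cells share in part, stood at 181 UMIs per 10,000 in old and 180 in young cells, against 410 and 418 in microglia-like cells. At a Leiden resolution of 2 the class took in more cells, 22 in the young library, and its levels were 1.87 for Hpgds and 0.466 for Ptgs1. Clustered alone, the young library gave no such class of 10 cells.

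Inside the microglia-like class both genes were found in nearly every cell. Hpgds was detected in 94.9% of old and 92.7% (89.5 to 95.2) of young cells, and Ptgs1 in 95.5% of old and 95.3% (92.5 to 97.2) of young cells. At 1000 UMIs per cell, the young shares were 38.5% for Hpgds and 39.9% for Ptgs1. Mature oligodendrocyte-like cells, which should lack both, had shares of 2.53% and 3.8% at a median of 9609 UMIs, against a median of 7993 in microglia-like cells. A microglia-like cell had a median of 4 Hpgds UMIs in both libraries, and single young cells ran between 0 and 15. For Ptgs1 the young median was 3.5 and the highest count 14.

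Over single cells, the levels of the genes were nearly unrelated. Both were seen in 90.9% of old cells, where independent detection would give 90.6%, and in 89.1% of young cells, where it would give 88.3%. After thinning to 1000 UMIs the young values were 15.4% for both the share and the product. The correlation of their levels over cells was -0.10 in 352 old and -0.01 in 358 young cells, in sparse counts that share a library. Spread over cells was close to counting noise: the variance was 1.45 times the Poisson value in both genes in old cells, and 1.58 times for Hpgds and 1.43 times for Ptgs1 in young cells. Among other microglial genes in young cells it was 1.57 times for Alox5ap and 1.69 times for Csf1r, close to Hpgds, and 2.39 times for Ltc4s, 2.57 times for Tmem119 and 2.96 times for P2ry12. The median level was 16.4 for Tmem119, 21.8 for P2ry12 and 22.95 for Csf1r, all above Hpgds and Ptgs1, and the ratio was not compared at equal level.

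**Figure D3:**
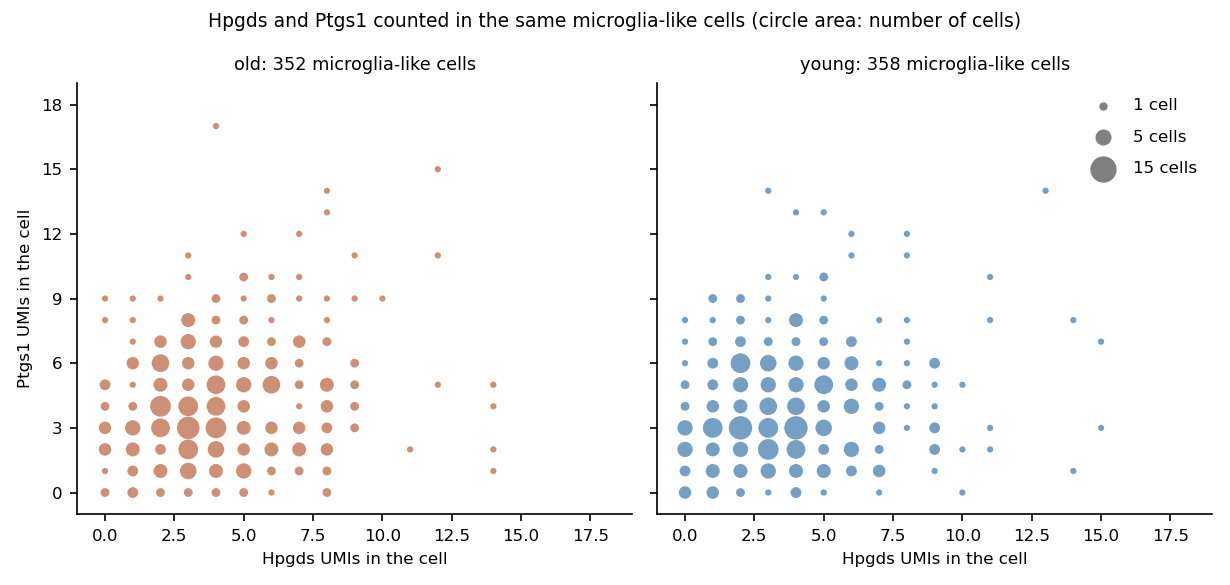
Ptgs1 UMIs against Hpgds UMIs in each microglia-like cell, old library left and young library right, with circle area proportional to the number of cells. Most cells lie between 1 and 8 UMIs of each gene, in a single cloud with no separate group. Counts are not scaled to each cell's depth here.

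Outside the macrophage classes Hpgds and Ptgs1 were low. In the young library Hpgds stood at 0.385 in pericyte-like, 0.298 in astrocyte-like, 0.199 in oligodendrocyte precursor-like and 0.174 in endothelial-like cells. Mature oligodendrocyte-like cells had 0.0281 and neuroblast-like cells 0.0268. Ptgs1 stood at 0.387 in astrocyte-like cells, between 0.129 and 0.199 in pericyte-like, oligodendrocyte precursor-like and endothelial-like cells. Mature oligodendrocyte-like cells had 0.0421. Neuroblast-like cells had 0 Ptgs1 UMIs, which allows a level of up to 0.0989. Past the macrophages, neighbours in the Hpgds order did not differ beyond counting error except endothelial-like over mature oligodendrocyte-like cells (6.21-fold, 1.24 to 60.0), and neighbours in the Ptgs1 order did not at all. Perivascular macrophage-like cells had 11.3-fold (4.93 to 28.3) the Hpgds level of pericyte-like cells. These low values were concentrated in few cells. The 8 Hpgds UMIs of 129 endothelial-like cells all came from 1 cell, which had 278 microglial marker UMIs per 10,000.

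In astrocyte-like cells, some Ptgs1 lay in cells with few microglial markers. Of the 27 Hpgds UMIs of 304 young astrocyte-like cells, 20 were in the 20 cells with at least 20 microglial marker UMIs per 10,000, and the other 284 cells had a level of 0.0826 (0.0332 to 0.170). Of the 35 Ptgs1 UMIs, 15 were in those 20 cells, and the other 284 cells kept a level of 0.236 (0.144 to 0.365), from 20 UMIs in 17 cells. Among the cells under that limit, Ptgs1 per Hpgds UMI was 3.43 (1.43 to 9.42) in old and 2.86 (1.16 to 8.0) in young astrocyte-like cells, against 1.00 and 1.03 in microglia-like cells. Under the same limit, 0 Ptgs1 UMIs were found in 44 young oligodendrocyte precursor-like cells, 0 in 64 pericyte-like cells and 1 in 123 endothelial-like cells. In the old library the level under that limit was 0.271 (0.174 to 0.404; 24 UMIs) in 272 astrocyte-like cells, 0.0628 (0.00761 to 0.227; 2 UMIs) in 39 oligodendrocyte precursor-like cells and 0.0615 (0.0127 to 0.180; 3 UMIs) in 123 endothelial-like cells, and 60 pericyte-like cells had 0. The old interval of astrocyte-like cells overlaps those of oligodendrocyte precursor-like and endothelial-like cells. In the young library it overlaps that of pericyte-like cells, which reaches 0.182. These differences were not tested. This limit was set after seeing the data.

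The genes most like Hpgds over the 10 classes were Cyth4, Pld4, Cd300c2, Unc93b1 and Fcgr3, each with r = 0.99. Those most like Ptgs1 were Csf2rb (r = 1.00), Neurl3, Ikzf1, Hk2 and Ncf1 (r = 0.97). Fcgr3, an Fc receptor gene of myeloid cells, was highest in perivascular macrophage-like cells, and the other 9 in microglia-like cells. With a pseudocount of 1 in place of 0.1 on the log2 scale, 2 of the 5 genes named for Hpgds and 3 of the 5 named for Ptgs1 were found again.

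Ptgs2 (plus strand of chromosome 1, 150100031 to 150108227, GRCm38) had 32 UMIs in old and 30 UMIs in young brain-class cells. Of these, 18 old and 14 young UMIs were in endothelial-like cells, at levels of 0.353 and 0.305 (0.167 to 0.512). The young level was 11.4-fold (5.17 to 25.02) that of the other brain-class cells. The 14 young UMIs came from 4 of 129 cells (3.10%, 0.851 to 7.75), with 7, 5, 1 and 1 UMIs, and the same 4 barcodes held 17 of the 18 old UMIs. A single unnamed cell held 12 old and 14 young UMIs, also under 1 barcode. That cell belongs to no named class. Its leading marker lists were erythroid at 20.99 and monocyte or neutrophil at 16.8 UMIs per 10,000 in the old library, and monocyte or neutrophil at 19.5 and erythroid at 16.4 in the young one. Scrublet called it a doublet in the young library and not in the old one, and without such cells the fold of endothelial-like cells was 93.5. At a Leiden resolution of 2 it joined the perivascular macrophage-like class, which then led for Ptgs2 at 1.31 UMIs per 10,000.

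Ptgs2 was hardly seen where other immediate early genes were high. Of the 12 listed immediate early genes, 11 were tested. In young microglia-like cells 9 of these were at least 4-fold higher than in the other brain-class cells. Of all 12336 genes tested, 5.72% passed that fold there. Among the 9 were Fos at 49.2 and Junb at 63.7 UMIs per 10,000. The list as a whole stood at 328 in old and 336 in young microglia-like cells. Ptgs2 had 2 UMIs in 2 of 352 old and 2 UMIs in 2 of 358 young microglia-like cells, a young level of 0.00695 (0.000841 to 0.0251). Endothelial-like cells, with an immediate early gene level of 76.3 in old and 75.6 in young cells, had 43.9-fold (10.1 to 398) that level of Ptgs2. Of the 4 young endothelial-like cells with Ptgs2, 2 were above the class median of 60.5 for immediate early genes and 2 below it. The other classes of at least 10 young cells had 0 UMIs. For the 46 neuroblast-like cells this allows a level of up to 0.0989, and for the 304 astrocyte-like cells one of up to 0.0408. With so few UMIs, likeness to Ptgs2 rests on 2 classes, and the genes most like it (Tek, Slc38a5, Sox17, Icam2 and Ocln) were endothelial-like genes.

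Other genes of the pathway were spread over several classes. Among lipases and phospholipases, 7 of 11 genes tested were at least 4-fold higher in some class of the young library, as were 43.6% of all genes tested. Pla2g15, Daglb and Abhd12 were so in microglia-like cells, at levels of 2.17, 2.49 and 6.98. Daglb encodes a diacylglycerol lipase and Abhd12 a lysophospholipase that also cleaves monoacylglycerols. Astrocyte-like cells, where 8.94% of genes tested passed that fold, had Pla2g7, which inactivates platelet-activating factor, at 14.6 (64.2-fold), Mgll, the monoacylglycerol lipase that releases arachidonic acid in brain, at 6.74, and Dagla at 0.332. Faah passed in oligodendrocyte precursor-like cells (background 7.67%) and in Cajal-Retzius-like cells (background 8.6%), from 8 and 5 UMIs. Pla2g4a, the cytosolic phospholipase A2, was highest in microglia-like cells at 0.563 and passed in no class.

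Of 8 other terminal synthases tested, 3 passed in some class, a share no higher than the 43.6% of all genes. Tbxas1, the thromboxane synthase, stood at 2.06 in microglia-like cells, 10.4-fold (8.12 to 13.5) above the rest. Perivascular macrophage-like cells had it at 1.31 in the young library, and at 2.27 in the old one, against 2.06 in old microglia-like cells. Ptgis, the prostacyclin synthase, stood at 2.15 in smooth muscle-like cells (background 4.83%) and at 0.349 in endothelial-like ones. Ptges, a prostaglandin E synthase, stood at 0.514 in pericyte-like (background 5.17%) and at 0.414 in endothelial-like cells, the named class that led for Ptgs2.

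Of 5 transport and breakdown genes tested, 3 passed in some class, as did 43.6% of all genes tested. Each of the 3 passed in a different class. Hpgd, which inactivates prostaglandins by oxidising their 15-hydroxyl group, passed in microglia-like cells. It had a level of 5.09 (4.83 to 5.35) in young microglia-like cells, 9.83-fold above the rest and of the same order as Hpgds and Ptgs1 there. Ltc4s, the leukotriene C4 synthase, stood at 5.95 in them, Alox5ap, which presents arachidonic acid to 5-lipoxygenase, at 3.69, the leukotriene receptor gene Cysltr1 at 0.778 and Alox5, the 5-lipoxygenase itself, at 0.181. In all, 4 of 6 leukotriene and lipoxygenase genes tested passed in microglia-like cells, where 5.72% of all genes tested passed. The median log2 fold of those 6 genes in that class was 1.77, against -0.43 for all 12336 genes tested. Young perivascular macrophage-like cells had Ltc4s at 7.20 (4.96 to 10.1), Hpgd at 4.58 and Alox5ap at 3.27. They had Cysltr1 at 1.31 (0.481 to 2.85) and Alox5 at 0.218, the latter from 1 UMI. These genes were thus not particular to microglia-like cells, which are among the cells that the perivascular macrophage-like fold is set against. Over single young microglia-like cells, the correlation of Hpgds with Hpgd was -0.06 and that of Ptgs1 with Hpgd 0.12. Abcc4, an efflux pump for prostaglandins, passed in endothelial-like cells at a level of 1.03, and Ptgr1 passed in smooth muscle-like cells on 5 UMIs.

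Receptor genes were sparse. Of 10 listed, 6 were in the table and 2 were tested, and both passed in pericyte-like cells (background 5.17%). Tbxa2r, the thromboxane receptor, had 87 of its 104 young UMIs there, a level of 3.73 (2.98 to 4.6), 136-fold above the rest. Ptger1 passed on 3 of its 22 young UMIs, at a level of 0.129 (0.0265 to 0.375). It was also found in young microglia-like cells, at 0.0486. Cysltr2, a leukotriene receptor gene, stood at 1.97 in pericyte-like and at 1.08 in smooth muscle-like cells. Ptgdr2, a receptor for prostaglandin D2, had 2 UMIs in all young brain-class cells, both in pericyte-like cells. The other prostaglandin D2 receptor gene, Ptgdr, was not among the 6 receptor genes present in the data. The mature oligodendrocyte-like class, highest in Ptgds, passed the fold for no other gene of the lipase, synthase, receptor, transport or leukotriene lists. Its Ptgs1 level of 0.0421 (0.00869 to 0.123) was 0.0151 times that of the other brain-class cells.

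**Figure D4:**
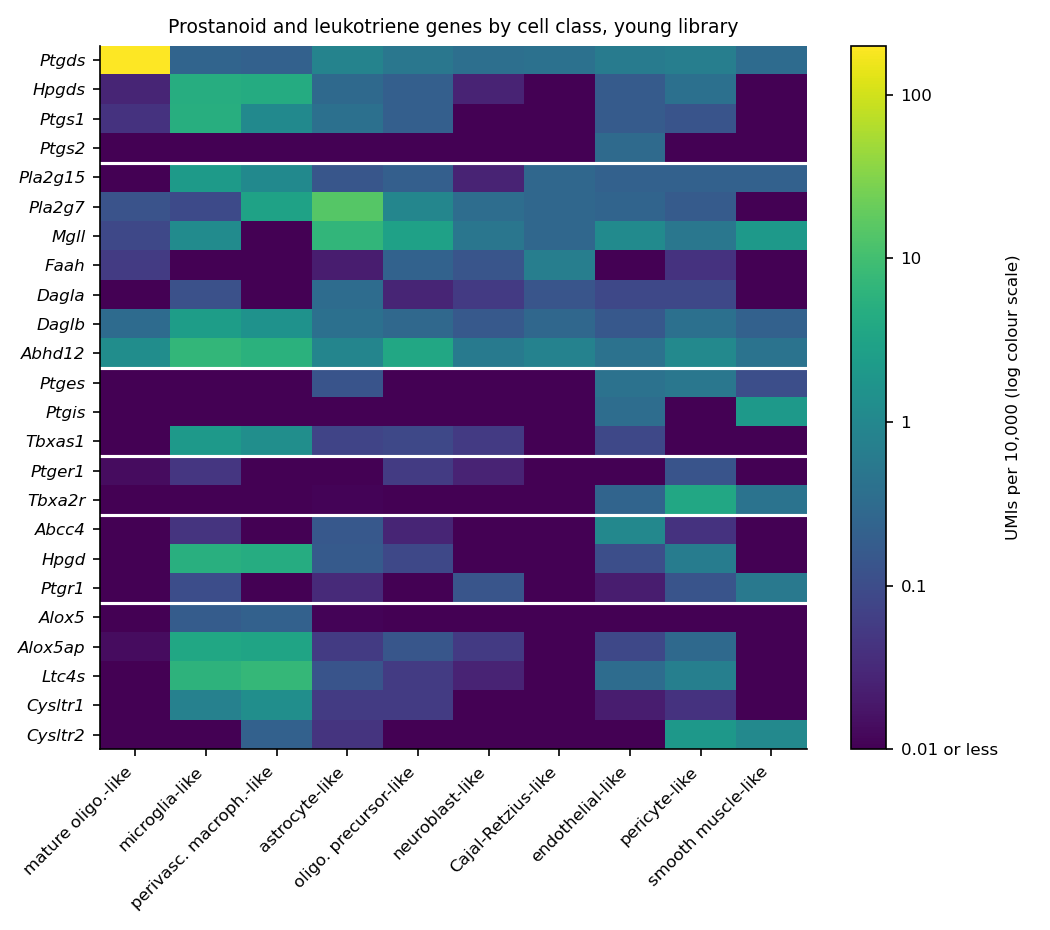
Level (UMIs per 10,000, log colour scale, 0.01 or less darkest) of the 4 genes and of the pathway genes at least 4-fold higher in a class, by cell class of the young library. White lines separate the 4 genes, lipases, other synthases, receptors, transport and breakdown genes, and leukotriene genes. Hpgds, Ptgs1, Tbxas1, Hpgd, Alox5ap and Ltc4s are high in microglia-like cells, while Ptgds is high in mature oligodendrocyte-like cells. In perivascular macrophage-like cells Hpgds, Hpgd and Alox5ap are nearly as high as in microglia-like cells, and Ltc4s is higher.

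Between the libraries, the leading levels hardly moved. Old over young, Ptgds in mature oligodendrocyte-like cells was 0.978 (0.956 to 1.00), Hpgds in microglia-like cells 0.978 (0.908 to 1.05) and Ptgs1 in microglia-like cells 0.948 (0.882 to 1.02). Ptgs2 in endothelial-like cells was 1.16 (0.543 to 2.51). Since the cells share barcodes, these ratios do not compare separate cells of each age. At least 2-fold higher in the old library were 0.401% of genes in mature oligodendrocyte-like, 0.259% in pericyte-like and 0.265% in endothelial-like cells, and Ptgds was not among them there.

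Ptgds in the classes that had little of it was higher in the old library. Microglia-like cells had 243 Ptgds UMIs in the old library, a level of 0.771, and 69 in the young one, a level of 0.240, which is 3.22-fold (2.45 to 4.27). In that class 1.14% of 9880 genes were at least 2-fold higher in the old library. The share of microglia-like cells with a Ptgds UMI was 48.9% in the old and 16.2% in the young library. Oligodendrocyte precursor-like cells had 38 UMIs in the old and 18 in the young library, 2.25-fold (1.26 to 4.19; background 0.171%). Astrocyte-like cells had 137 and 75 UMIs, 1.70-fold (1.27 to 2.29), which is under the 2-fold limit that 0.259% of genes passed there. The ratio was 1.87 (0.992 to 3.66) in pericyte-like and 1.41 (0.860 to 2.36) in endothelial-like cells. Over barcodes found in the same class in both libraries it was 3.25 in microglia-like, 2.0 in oligodendrocyte precursor-like and 1.70 in astrocyte-like cells, so the same barcodes carried the difference.

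The myelin companion genes were read in the same cells. In microglia-like cells, 11 of 12 myelin companion genes had a higher level in the old library, with a median ratio of 1.71, against 48.7% of all 9880 genes tested, with a median of 0.998. Of the 12, 2 passed the 2-fold limit that 1.14% of all genes passed. Car2 (72 old and 24 young UMIs, 2.74-fold) and Cryab (118 old and 43 young UMIs, 2.51-fold) were those 2. In mature oligodendrocyte-like cells 3 of the 12 were higher, with a median of 0.989, against 48.2% of all 6728 genes, with a median of 0.997. Ptgds per Mbp UMI in microglia-like cells was 0.591 (0.502 to 0.695) in the old library and 0.289 (0.218 to 0.379) in the young one, both below the 4.54 and 4.56 of old and young mature oligodendrocyte-like cells. The mature oligodendrocyte marker list, with none of its 10 genes at 0, stood at 4.27 UMIs per 10,000 in old and 2.63 in young microglia-like cells. Erythroid markers summed over all brain-class cells stood at 23.5 in the old and 10.7 in the young library. The part of these transcripts from other cells in the Ptgds ratio was not tested.

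**Figure D5:**
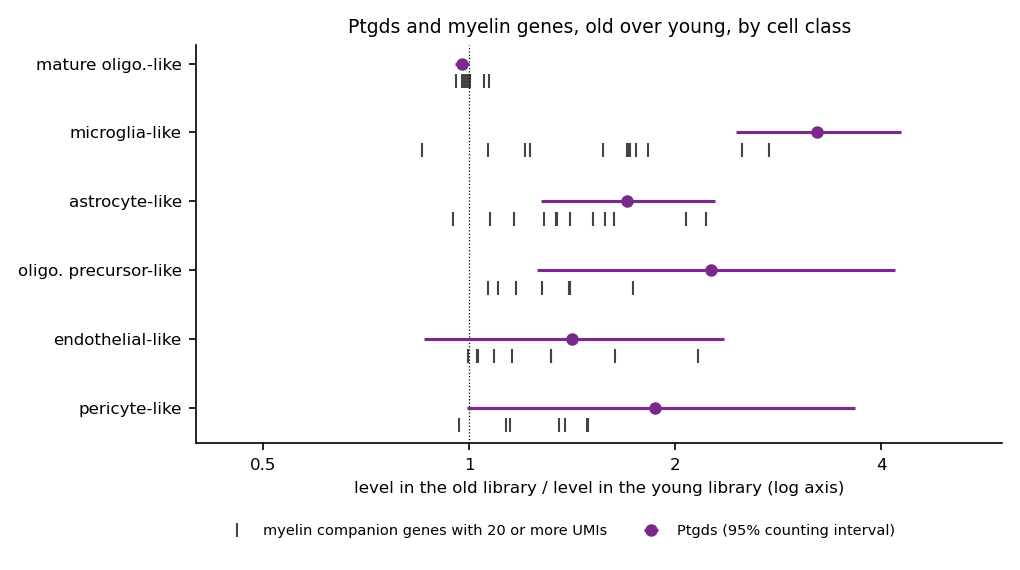
Level in the old library divided by that in the young library (log axis) for Ptgds, with its 95% counting interval, and for each myelin companion gene with at least 20 UMIs in a class (ticks). In mature oligodendrocyte-like cells all stand near 1, and in microglia-like cells Ptgds stands at 3.22 beside companions with a median of 1.71.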

How the data were processed

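The deposited table holds 2 libraries of single cells, 1 per age. Per the submitters' processing notes, Cell Ranger 5.0.0 and the mm10 build were used. The values, as deposited by the authors, are the natural log of 1 plus UMIs per 10,000, a unit read from the values: with the log undone, each cell summed to 10000, and 100% of values gave whole UMIs within 0.01. Those UMIs were used throughout. The column of each gene held both libraries.

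All 3893 cells were clustered without integration (Scanpy 1.11.5, Python 3.11.15, 2000 variable genes, 30 principal components, 15 neighbours, Leiden resolution 1 with igraph 0.11.9). Sums and intervals used scipy 1.17.1 and numpy 2.4.6, tables pandas 2.3.3 and plots matplotlib 3.10.9. Left in, 3 of the 4 genes would have been among the variable genes. Names came from 179 markers of 22 classes: at least 3 markers with UMIs in 25% of cells and a 4-fold higher level. After seeing the data, sub-clusters with 50% or more of cells at 20 or more microglial marker UMIs per 10,000 stayed unnamed. This held for 2 that would have been called T or NK cell-like (11 old and 10 young cells) and erythroid-like (6 and 6 cells). Scrublet called 18 old and 34 young doublets, which were kept.

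Levels have exact Poisson intervals, shares exact Clopper-Pearson intervals and ratios conditional exact intervals, at 95%. UMIs give no more than counting error. With 1 library per age, no p-value was computed. A class fold was tested for genes with at least 20 young brain-class UMIs, and a ratio between libraries for genes with at least 20 UMIs in the class. Thinned shares are the expected shares at 1000 UMIs per cell. Genes named are the 4, pathway genes at least 4-fold higher in a class, and the 5 genes most correlated with each of the 4 over classes of at least 10 young cells. Coordinates are GENCODE M21. Of the last 500 bases of transcripts, 1.13% of 31-mers of Hpgds and 0.0531% of those of Ptgs1 occur in other genes, and 0% of the others. The genes and lists were chosen with earlier results of these data known.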

Additional observations from a re-analysis of the deposited data

Results flagged for a closer look

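Ptgds and Ptgs1 were also counted in the low-mitochondrial clusters, which the comparisons did not use. Ptgds had 239 UMIs there in 290 old cells and 296 in 1315 young cells. A single barcode, present in both libraries, held 214 of the old and 212 of the young UMIs, at 481 and 521 UMIs per 10,000. That cell had 87.7 fibroblast marker UMIs per 10,000 in the old and 86 in the young library, 128 and 123 pericyte marker UMIs, and a mitochondrial share of 5.44% and 4.74%, above the 1% that set these clusters apart. Without it the Ptgds level was 0.524 (0.339 to 0.774) in old and 0.0861 (0.0687 to 0.107) in young cells of these clusters. Ptgs1 had 4 UMIs there in the old library and 4 in the young one, close to the 3 counts that mark a class with 0 UMIs.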

How the results depend on the processing

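Of 172 values computed under other settings, 148 moved by no more than their counting interval (counts of genes by no more than 1.5 times), 24 moved further and none turned direction. Folds over the other brain-class cells depended most on which cells those were. A mitochondrial limit of 0.5% gave 483-fold for Ptgds, 62.2 for Hpgds, 69.8 for Ptgs1 and 28.3 for Ptgs2. The young library clustered alone gave 461, 17.5 and 19.1 for the first 3, and a Ptgds level of 187 in mature oligodendrocyte-like cells. With the 4 genes allowed in the clustering, the fold was 13.9 for Hpgds and 13.2 for Ptgs1, and at resolution 0.5 it was 10.6 for Hpgds. Without Scrublet doublets, among them the unnamed Ptgs2 cell, that of Ptgs2 was 93.5. Means over cells gave levels of 185 for Ptgds and 5.19 for Hpgds, with folds of 222, 7.23 and, for Ptgs1, 9.24. Thinning gave the shares of 38.5% and 39.9%. At resolution 2 the unnamed Ptgs2 cell joined the perivascular macrophage-like class, which then led with 1.31. The last alternatives were chosen after seeing the data. Without cells carrying microglial markers, astrocyte-like levels were 0.0826 for Hpgds and 0.236 for Ptgs1. Without 1 cell, Ptgds in the low-mitochondrial clusters was 0.0861 in the young library. No paired analysis was possible because each age has 1 library and the results come from no test. Depth limits Ptgs2 and all classes of 10 to 14 cells.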
